A study of Homo sapiens with 39 samples.

Results

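Colchicine (COL), a spindle poison, was compared directly with aflatoxin B1 (AFB1), a former of DNA adducts, in the 7 libraries of the series that hold these 2 chemicals and the vehicle control they share. The libraries were chosen by their titles: 3 COL, 3 AFB1 and 1 DMSO control of the 39 libraries. The question was which genes separate 2 chemicals known as inducers of micronuclei and which genes they move alike. Micronucleus counts were not analysed here, and all 3 concentrations of each chemical were used whether or not they induced micronuclei in these cells.

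Micronuclei are small extranuclear bodies that form when a chromosome fragment, or a whole chromosome that fails to attach to the spindle, is left behind at cell division. Colchicine binds the free alpha-beta tubulin dimer and blocks its assembly into microtubules, which form the spindle in dividing cells and the transport network in all others. Aflatoxin B1 is oxidized by cytochrome P450 enzymes of the hepatocyte to an epoxide that binds guanine in DNA, and the lesions activate p53, the transcription factor of the DNA damage response.

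All libraries came from differentiated HepaRG cells, a human hepatoma line that matures into hepatocyte-like and biliary-like cells. Cells were cultured for 7 days, treated daily for 3 days and sampled 7 h after the third treatment (55 h of exposure in all). COL was given at 0.05, 0.1 and 0.3 µM and AFB1 at 0.25, 1 and 2.5 µM, called low, mid and high here, and the matched control received DMSO alone. The levels of the 2 chemicals are ranks, not matched doses. RNA of 3 cultures was pooled for each library, so each concentration is 1 library, and the 3 concentrations stand in for replicates of a chemical. In the contrasts with vehicle the 3 DMSO controls of cisplatin, etoposide and 2-nitrofluorene were added, which gave 4 controls. Library totals ranged from 9008520 to 14894463 counts over 20802 gene targets, and values are given as RPM, each target's reads divided by the library's total and scaled to a common size. P-values here measure the spread between these libraries of 1 line, and part of that spread is the step in concentration.

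ALB, the main plasma protein of hepatocytes, ranged from 14275 to 33206 RPM over the 10 libraries, and all 8 hepatocyte markers were detected. Of the biliary markers, KRT19 was abundant, KRT7 was listed at 0, and EPCAM and CFTR were at or near 0. The leukocyte markers PTPRC, CD3E and MS4A1 were listed at 0, as were the endothelial markers CDH5 and VWF. Of the stromal markers COL1A2 was listed at 0 too, although COL1A1 (17.5 to 46.3 RPM), LUM (51.7 to 122 RPM) and DCN (18.8 to 75.9 RPM), which encode a collagen chain and 2 matrix proteoglycans, were detected in all 10. So were the endothelial marker PECAM1 (2.72 to 11.4 RPM) and the macrophage markers CD14 (14.5 to 33.9 RPM) and CD68 (66.2 to 99.02 RPM). The matched control stood apart from the other DMSO controls in KRT19 (1233 against 397 to 626 RPM) and in FOSB, an immediate-early gene (35.1 against 4.29 to 5.22 RPM). The direct comparison of COL with AFB1 uses no control library.

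With the 3 libraries of each chemical as its replicates, 2 of 12805 genes passed an adjusted p of 0.05 (edgeR quasi-likelihood test, Benjamini-Hochberg over all genes tested). IGFBP1 was higher in COL (0.00781% of genes tested were called higher) and CYP4F22 was lower (0.00781% were called lower). IGFBP1 measured 99.6, 106 and 97.1 RPM in the COL libraries (low, mid and high), 41.4, 37.4 and 39.3 RPM in the AFB1 libraries and 29.9 RPM in the matched control. The COL libraries were 2.55-fold above the AFB1 libraries without overlap (log2 difference 1.35 ± 0.11 SE, edgeR adjusted p = 0.00768). IGFBP1 encodes a liver-secreted protein that binds insulin-like growth factors, and the other DMSO controls held 15.1 to 20.8 RPM of it. CYP4F22 measured 11.4, 10.4 and 10.7 RPM in the COL libraries (low, mid and high), 28.2, 24.6 and 29.2 RPM in the AFB1 libraries and 22.6 RPM in the matched control. CYP4F22, a fatty acid omega-hydroxylase, was lower in all 3 COL libraries than in any AFB1 library (-1.33 ± 0.14, edgeR adjusted p = 0.0319), although the other DMSO controls spread from 5.37 to 20.2 RPM. At an unadjusted p of 0.05, 946 genes were higher and 840 lower. The count of 2 fell to 0 without the mid library of COL or of AFB1, was 1 without the high library of either or the low library of AFB1, and rose to 104 without the low COL library.

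When the level was fitted as a block, which compares low with low, mid with mid and high with high, 221 genes were higher in COL (1.73% of those tested) and 175 were lower (1.37%). The sum of 396 was 68 without the mid libraries, 251 without the high and 906 without the low ones. Without any test, 1354 genes (10.6%) had all 3 COL libraries above all 3 AFB1 libraries and 1124 genes (8.78%) had them below. The difference of the slopes over level (controls 0, low 1, mid 2, high 3) was positive for 413 genes (3.16%) and negative for 413 (3.16%) at an adjusted p of 0.05. With the matched control alone in place of the 4 controls, the slope difference was called for 843 genes (6.29%) as positive and 896 (6.69%) as negative.

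Among the genes that separated the chemicals in the block fit, the 12 with the largest differences in each direction were examined. A mean of at least 5 RPM in the higher chemical and libraries that did not overlap were required of them. Differences are given from here on as log2 of COL minus AFB1 ± SE from the block fit, unless a slope or a contrast with the controls is named. SERPINB2 measured 70.7, 240.1 and 509.7 RPM in the COL libraries (low, mid and high), 24.5, 20.5 and 27.96 RPM in the AFB1 libraries and 10.8 RPM in the matched control. SERPINB2, an inhibitor of plasminogen activators, rose with every step of COL concentration, while the highest of the 4 controls was 20.7 RPM and the AFB1 slope did not pass the threshold (difference 3.15 ± 0.42 log2, edgeR adjusted p = 0.0116). ITGB3, the integrin beta-3 subunit, measured 10.99, 14.7 and 41.6 RPM in COL, 4.00, 5.64 and 7.20 RPM in AFB1 and 3.72 RPM in the matched control (1.83 ± 0.24). TNC, the matrix protein tenascin C, measured 16.5, 32.4 and 49.5 RPM in COL, 9.21, 9.73 and 10.1 RPM in AFB1 and 9.02 RPM in the matched control (1.66 ± 0.25). The matrix genes SPON2 and LTBP1, which encodes a binding protein of latent TGF-beta, the membrane metalloproteinase MMP24 and the small GTPase RASD1 had the same separation, with log2 differences of 1.48 (LTBP1), 1.60 (SPON2), 1.40 (MMP24) and 1.58 (RASD1). FAM26E, ACPL2, ZNF385D and PLK1, a mitotic kinase, were also among the 12 genes.

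TREM2, a receptor known from macrophages, had the largest difference of the 12 genes named as lower in COL. TREM2 measured 0.352, 0.397 and 0.325 RPM in the COL libraries (low, mid and high), 1.55, 3.36 and 12.8 RPM in the AFB1 libraries and 0.286 RPM in the matched control. The COL libraries held 4, 4 and 3 reads and the AFB1 libraries 14, 50 and 137, and the gene had at most 4 reads in any control. It rose with level in AFB1 (COL minus AFB1 -3.74 ± 0.51, edgeR adjusted p = 0.0118). The macrophage marker CD68 measured 86.1, 81.6 and 71.3 RPM in COL, 90.2, 74.7 and 66.2 RPM in AFB1 and 99.02 RPM in the matched control, and CD163 was at or near 0 in all libraries. H19, an imprinted long noncoding RNA, measured 38.1, 25.4 and 20.7 RPM in COL, 82.8, 112 and 145 RPM in AFB1 and 84.8 RPM in the matched control: it was below the lowest of the 4 DMSO controls (45.04 RPM) in all COL libraries and rose with level in AFB1 (-2.01 ± 0.24). CYGB, which encodes cytoglobin, measured 22.7, 14.9 and 14.9 RPM in COL, 39.5, 55.7 and 83.2 RPM in AFB1 and 28.2 RPM in the matched control (-1.73 ± 0.25). H19, CYGB and EDN2, an endothelin, had a COL slope below 0 and an AFB1 slope above 0, both past the threshold.

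Other genes of this group were lower in COL with AFB1 close to the controls. CHI3L1, a secreted chitinase-like protein, measured 372, 241 and 130.4 RPM in COL, 745, 785 and 616 RPM in AFB1 and 783 RPM in the matched control, and fell at each step of COL (-1.65 ± 0.18, edgeR adjusted p = 0.00743). S100A8, a calprotectin subunit, PRKAR2B, a regulatory subunit of protein kinase A, MYBPH and IGFBP5 had negative COL slopes of -0.80 (S100A8), -0.98 (PRKAR2B), -1.15 (MYBPH) and -0.92 (IGFBP5) log2 per level, all past the threshold, against AFB1 slopes of 0.01, -0.13, -0.17 and -0.13 in the same order, none past it. CEL, a lipase, and HIST2H2AB, a core histone gene, were the reverse case, with AFB1 slopes of 0.83 and 0.53, both past the threshold, and COL slopes of 0.00 and -0.20, neither past it. FABP4, a fatty acid binding protein, passed neither slope test.

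**Figure D1:**
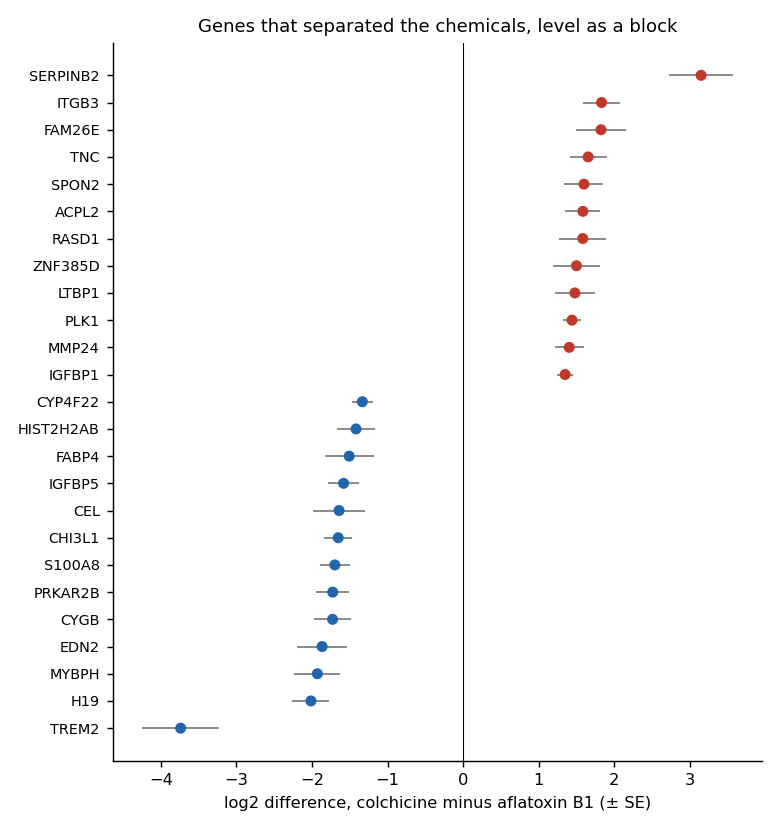
Log2 difference of COL minus AFB1 (x axis, point with SE bar, level fitted as a block) for genes named in each direction in that fit and for IGFBP1 and CYP4F22. SERPINB2 stands highest and TREM2 lowest. Every bar lies clear of 0, which follows from choosing genes past the threshold.

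Tubulin mRNAs separated the chemicals. Cells sense the free tubulin dimer: when dimers accumulate, as when colchicine depolymerizes microtubules, ribosomes translating tubulin mRNA are recognized by the residues encoded in its first codons and the mRNA is degraded, which is known as tubulin autoregulation. Of the 10 tubulin dimer genes tested, 6 were lower in COL than in AFB1 in the block fit (1.37% of all genes) and 0 were higher (1.73%). The count lower was 4 without the mid libraries and 6 without the low or the high ones. Their median log2 difference was -0.55, against -0.01 over all genes tested. The first 30 coding bases of these genes, from GENCODE v29 transcripts on GRCh38, are shown because they hold the recognized codons. The first 12 bases are in capitals, and TUBG1, a gamma-tubulin that is no part of the dimer, is added for comparison.
TUBB: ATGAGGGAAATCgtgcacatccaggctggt
TUBB2A: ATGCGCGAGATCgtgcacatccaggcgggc
TUBB4B: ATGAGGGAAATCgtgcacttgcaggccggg
TUBA1B: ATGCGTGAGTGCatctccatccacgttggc
TUBA1C: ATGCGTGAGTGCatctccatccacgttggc
TUBA4A: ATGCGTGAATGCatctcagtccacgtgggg
TUBA1A: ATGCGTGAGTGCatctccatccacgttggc
TUBG1: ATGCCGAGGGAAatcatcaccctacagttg
The start codons lie at chr6:30720507 (TUBB, plus strand), chr6:3157463 (TUBB2A, minus), chr9:137241361 (TUBB4B, plus), chr12:49131300 (TUBA1B, minus), chr12:49265182 (TUBA1C, plus), chr2:219253858 (TUBA4A, minus), chr12:49188419 (TUBA1A, minus) and chr17:42609738 (TUBG1, plus). TUBB and TUBB4B share their first 12 bases, and TUBA1A, TUBA1B and TUBA1C are identical over all 30.

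Among the beta-tubulin genes, TUBB measured 682, 621 and 765 RPM in COL, 1095, 1085 and 1338 RPM in AFB1 and 789 RPM in the matched control. The 3 COL libraries were below the matched control and the 3 AFB1 libraries above it, and the AFB1 libraries were above all 4 controls, which reached 950.1 RPM (difference -0.77 ± 0.08, edgeR adjusted p = 0.00743). TUBB4B measured 29.9, 30.7 and 35.5 RPM in COL, 60.7, 61.1 and 102 RPM in AFB1 and 45.5 RPM in the matched control, the widest gap of the list (-1.19 ± 0.13, edgeR adjusted p = 0.00743). TUBB2A measured 104, 114 and 119 RPM in COL, 145, 161 and 171 RPM in AFB1 and 139 RPM in the matched control (-0.51 ± 0.09). Its AFB1 values lay within the 4 controls (139 to 205 RPM) and its COL values below all of them.

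Among the alpha-tubulin genes, TUBA1B measured 333, 446 and 420.1 RPM in COL, 557, 635 and 864 RPM in AFB1 and 451 RPM in the matched control (-0.77 ± 0.11, edgeR adjusted p = 0.0134). TUBA1C and TUBA4A were lower in COL as well, with differences of -0.60 and -0.76. TUBA1A was the exception, although its first 30 coding bases are those of TUBA1B: it measured 60.9, 92.1 and 152 RPM in COL, 50.6, 54.9 and 58.2 RPM in AFB1 and 44.6 RPM in the matched control. All 3 COL libraries were above all 3 AFB1 libraries, the block difference of 0.80 ± 0.19 missed the threshold (edgeR adjusted p = 0.0538), and the difference of slopes passed it (0.42 ± 0.06 log2 per level, edgeR adjusted p = 0.00108). TUBA1A, TUBA1B and TUBA1C are close copies, so reads assigned among them are uncertain.

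COL changed some tubulin mRNAs in the contrast with vehicle, and AFB1 did so by slope alone. Against the 4 DMSO controls COL lowered 2 dimer genes, TUBB2A and TUBB4B (3.48% of 13073 genes were called lower), and raised 1, TUBA1A (5.55% were called higher). AFB1 changed 0 of 11 (1.07% of genes were called higher and 0.115% lower), but its slope over level was positive and past the threshold for 3, TUBB, TUBA1B and TUBA4A (6.26% of genes had a positive AFB1 slope). TUBB3, TUBB2B and TUBA8 differed between the chemicals by 0.03, -0.16 and -0.22, none past the threshold. Of 15 other tubulin and nucleation genes, which include the gamma-tubulins, 0 were called in the block fit, with a median difference of -0.03. Of 22 genes of microtubule-associated proteins, 0 were called, with a median of 0.13.

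More targets of p53 rose with AFB1 than with COL. Against the 4 DMSO controls 8 of 34 p53 target genes rose in AFB1 (1.07% of all genes) and 2 in COL (5.55%), and 0 fell in either. The AFB1 count was 17 without its low library and 12 without the matched control. It was 0 without the high AFB1 library, the mid library of either chemical, or the 2-nitrofluorene, cisplatin or etoposide control. By slope, 27 of the 34 had a positive AFB1 slope past the threshold (6.26% of all genes had one) and 8 a positive COL slope (10.4% of all genes had one). The slope was lower in COL than in AFB1 for 16 (3.16% of all genes) and higher for 0. The median level relative to the matched control (log2 of RPM + 1) was 0.11, 0.45 and 0.94 at low, mid and high AFB1 and 0.03, 0.01 and 0.19 at the levels of COL. With the matched control as the only control, the counts were 27 (4.71% of all genes) for AFB1 and 5 (9.51%) for COL. The slope difference was then called for 22, all lower in COL (6.69% of all genes). In the block fit 3 were lower in COL, SESN1, POLH and CYFIP2 (1.37% of all genes). The COL and AFB1 libraries of 10 did not overlap, all 10 lower in COL (8.78% of all genes). The block count was 18 without the low libraries, 2 without the high and 0 without the mid ones.

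FDXR, a mitochondrial ferredoxin reductase, measured 56.2, 43.1 and 41.9 RPM in COL, 62.4, 100.2 and 197 RPM in AFB1 and 51.6 RPM in the matched control: the COL libraries stayed within or just above the controls (37.8 to 51.6 RPM) while the high AFB1 library stood far above them (slope difference -0.67 ± 0.07 log2 per level, edgeR adjusted p = 0.000122). MDM2, which marks p53 for degradation, measured 424, 535 and 336 RPM in COL, 607, 606 and 1112 RPM in AFB1 and 390.3 RPM in the matched control (slope difference -0.42 ± 0.10, edgeR adjusted p = 0.0222). SESN1, a stress-induced inhibitor of growth signalling, measured 67.5, 73.5 and 66.8 RPM in COL, 101, 124 and 171 RPM in AFB1 and 91.00 RPM in the matched control (slope difference -0.44 ± 0.07). In these genes AFB1 was above COL at every level, with the largest gap at the high level.

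The repair genes DDB2, XPC and POLH, the last a polymerase that copies past damaged bases, and the phosphatase PPM1D had lower slopes in COL than in AFB1, by 0.29 (DDB2), 0.27 (XPC), 0.28 (POLH) and 0.37 (PPM1D) log2 per level. CDKN1A, the cyclin-dependent kinase inhibitor p21, separated the chemicals less: it measured 552, 463 and 520.4 RPM in COL, 546, 624 and 760.5 RPM in AFB1 and 505 RPM in the matched control, with other DMSO controls at 555 to 619 RPM. Its slopes were -0.08 ± 0.04 in COL and 0.10 ± 0.04 in AFB1, neither past the threshold, and their difference was -0.18 ± 0.05 (edgeR adjusted p = 0.0383). Some p53 targets moved in both chemicals. GDF15, a stress cytokine, measured 215, 177 and 286 RPM in COL, 207, 158 and 301 RPM in AFB1 and 139 RPM in the matched control, with slopes of 0.44 ± 0.11 and 0.44 ± 0.11, both past the threshold, and PLK2 slopes were 0.32 ± 0.07 and 0.40 ± 0.06, also past it.

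Genes of DNA replication and nucleotide synthesis rose in both chemicals, and by slope some rose further in AFB1. Of 33 tested, 27 had a positive AFB1 slope (6.26% of all genes) and 17 a positive COL slope (10.4%) past the threshold. The slope was lower in COL for 5 (PCNA, RRM1, RRM2, TYMS and E2F8), against 3.16% of all genes. With the matched control alone it was lower in COL for 14 (6.69% of all genes) and higher for 0. In the block fit 0 of the 33 were called in either direction, and 6 were lower in COL without the low libraries. The libraries of 3 did not overlap, all lower in COL (8.78% of all genes). PCNA, the clamp of the replicative polymerases, measured 71.9, 66.5 and 70.7 RPM in COL, 80.5, 94.6 and 197 RPM in AFB1 and 53.99 RPM in the matched control (slope difference -0.41 ± 0.06, edgeR adjusted p = 0.00112). RRM2, a ribonucleotide reductase subunit, measured 54.5, 58.9 and 57.4 RPM in COL, 47.8, 84.3 and 183 RPM in AFB1 and 30.9 RPM in the matched control. The COL libraries lay close together in both, whereas AFB1 climbed to its highest value at the high level. TYMS, thymidylate synthase, measured 137, 135 and 152 RPM in COL, 144, 180.5 and 335 RPM in AFB1 and 92.6 RPM in the matched control, with all 6 treated libraries above the 4 controls (71.2 to 92.6 RPM).

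Of 15 histone genes tested, 5 were lower in COL in the block fit (1.37% of all genes) and 0 were higher: HIST1H1C, HIST1H2BC, HIST1H2BD, HIST1H2BN and HIST2H2BE. Without the mid or the high libraries 3 were lower. The median difference over the list was -0.54. HIST1H2BN measured 26.2, 28.3 and 27.3 RPM in COL, 33.1, 49.1 and 72.9 RPM in AFB1 and 26.9 RPM in the matched control, with an AFB1 slope past the threshold (0.42 ± 0.04, edgeR adjusted p = 4.7e-05). HIST1H1C, a linker histone, measured 88.7, 112 and 102 RPM in COL, 156, 146 and 253 RPM in AFB1 and 108 RPM in the matched control. Members of this family are near copies, and reads split among them are uncertain.

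**Figure D2:**
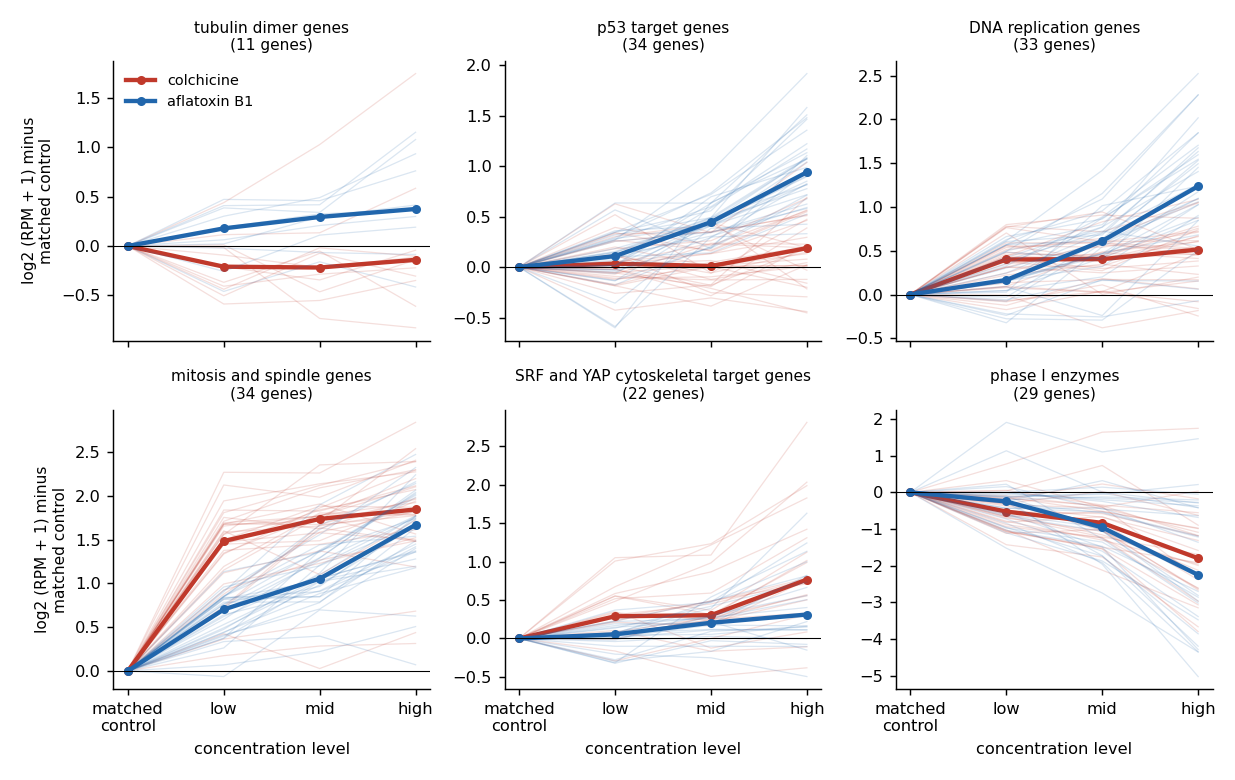
Log2 (RPM + 1) minus the matched control (y axis) at each concentration level (x axis) for COL (red) and AFB1 (blue), with 1 thin line per gene, the list median as a thick line, and y axes that differ between panels. The p53 median reached 0.94 at high AFB1 and 0.19 at high COL, the mitosis median was already 1.48 at low COL, and the phase I median fell in both.

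Target genes of SRF and YAP, regulators that respond to the actin cytoskeleton, were higher in COL where they separated the chemicals. Of 22 tested, 17 had a positive COL slope (10.4% of all genes) and 6 a positive AFB1 slope (6.26%) past the threshold. The slope difference was positive for 7 and negative for 0 (3.16% of all genes in each direction). With the matched control alone these were 12 and 0 of 23 (6.29% and 6.69% of all genes). In the block fit 4 were called, among them CNN1, TPM4 and FLNA, all higher in COL (1.73% of all genes), and 10 had libraries that did not overlap, all higher in COL (10.6% of all genes). The 4 became 7 without the low libraries and 2 without the mid ones. FLNA, the actin crosslinker filamin A, measured 185, 263 and 545 RPM in COL, 131, 162 and 210.4 RPM in AFB1 and 132 RPM in the matched control, a rise at each COL step (COL slope 0.72 ± 0.05, edgeR adjusted p = 6.59e-07). TPM4, a tropomyosin, measured 347, 506 and 774 RPM in COL, 244, 263 and 287 RPM in AFB1 and 217 RPM in the matched control (COL slope 0.72 ± 0.08). AFB1 slopes of these were 0.29 (FLNA, past the threshold) and 0.24 (TPM4, not past it).

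CNN1, the smooth muscle calponin, rose from few reads: it held 24, 22 and 88 reads in the COL libraries and 2, 5 and 8 in those of AFB1. Beta-actin and gamma-actin moved less, ACTB at 9149, 10975 and 12825 RPM in COL, 8052, 8117 and 8743 RPM in AFB1 and 7822 RPM in the matched control and ACTG1 with a slope difference of 0.21 ± 0.04 (edgeR adjusted p = 0.00807). The list was not uniform. FHL2 rose in both (slopes 0.40 ± 0.06 in COL and 0.49 ± 0.06 in AFB1, both past the threshold), ACTA2 rose in both by slope, and ANKRD1 and CTGF had no slope past the threshold in either. SRF binds a sequence named the CArG box. Of 18 list members with a promoter sequence (RefSeq, GRCh38.p14; 18 of 22 matched), 6 held that box in the 250 bases before a start site on either strand (33.3%), against 1.5% of the 9535 tested genes with a promoter sequence (72.9% of 13073 matched). The list was written as targets of SRF and YAP, so a share above that of all genes follows in part from its making. The called CNN1 was not among the 6. The box is in capitals in 30-base windows of the called FLNA and TPM4 and of FHL2, which both chemicals raised.
FLNA: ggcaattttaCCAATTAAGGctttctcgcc
TPM4: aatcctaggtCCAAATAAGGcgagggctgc
FHL2: aatctggagaCCTTAAAAGGcacgtgggag
The windows lie at FLNA chrX:154374709-154374738 (minus strand), TPM4 chr19:16067355-16067384 (plus strand) and FHL2 chr2:105438595-105438624 (minus strand).

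Immediate-early genes, which serum and stress signals induce within minutes, were also higher in COL where they differed in the block fit. Of 18 tested, 7 were higher in COL in the block fit (1.73% of all genes) and 0 lower: JUND, IER3, KLF6, FOSL2, ATF3, DUSP1 and DUSP5. Without the mid libraries 4 were called, and without the low ones 8 were higher and 2 lower. JUND, an AP-1 subunit, measured 111, 118 and 146 RPM in COL, 57.5, 64.1 and 63.7 RPM in AFB1 and 66.3 RPM in the matched control (1.00 ± 0.11, edgeR adjusted p = 0.00743). KLF6, a zinc-finger factor, measured 257, 265 and 396 RPM in COL, 147, 152 and 149 RPM in AFB1 and 156 RPM in the matched control. In both the AFB1 libraries stayed near the matched control and every COL library stood above. FOS, EGR1 and ZFP36 did not separate, with differences of 0.02, 0.24 and -0.01, and JUNB had a lower slope in COL (-0.36 ± 0.08, edgeR adjusted p = 0.0183). The slope difference was positive for 3 and negative for 1 (3.16% of all genes in each direction). With the matched control alone these were 8 and 2 (6.29% and 6.69%). The matched control held more FOSB, EGR2 and ATF3 than any other control, for example 52.9 against 10.2 to 30.6 RPM for ATF3. Relative to it, the list medians of the other DMSO controls were -0.70 (2-nitrofluorene), -0.63 (cisplatin) and -0.55 (etoposide) log2. With the matched control alone 4 of the 18 had a negative COL slope (11% of all genes), against 1 with all 4 controls (10.6%). Against the 4 DMSO controls 11 of 18 rose in COL (5.55% of all genes) and 1 in AFB1 (1.07%), with median log2 changes of 0.815 and 0.417.

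Mitosis and spindle genes rose in both chemicals and held the most genes that moved alike of any list. Of 34 tested, 31 rose in COL (5.55% of all genes tested) and 19 rose in AFB1 (1.07%) against the 4 DMSO controls, and 0 fell in either. The count in COL stayed between 24 and 31 without any 1 library. The count in AFB1 was 28 without its low library, 4 without its high one, 1 without the cisplatin control and 0 without the mid AFB1, mid COL, etoposide control or 2-nitrofluorene control library. Over all genes the 155 calls of AFB1 against the controls moved likewise, to 432 without its low library and to between 0 and 7 without any 1 of the other libraries just named.

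A gene was counted as moved alike when it passed the threshold in the same direction against the controls in both chemicals with all 6 treated libraries beyond all 4 controls. The rule found 83 genes higher (0.635%) and 9 lower (0.0688%), and 18 of the 83 belong to the mitosis list. The 2 contrasts share their controls, so this count is a description. The sum of 92 was 0 without any 1 of the mid COL library, the mid AFB1 library and the controls of etoposide and 2-nitrofluorene, 1 without the cisplatin control, 6 without the high AFB1 library, 52 without the high COL library, 81 without the low COL library, 196 without the low AFB1 library and 278 without the matched control. With slopes in place of means, 454 genes rose and 448 fell in both. With slopes and the matched control alone, 284 rose and 570 fell in both. The mitosis list then had 32 positive COL slopes (9.51% of all genes) and 17 positive AFB1 slopes (4.71%).

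In COL the list median was 1.48, 1.74 and 1.85 above the matched control (log2) at low, mid and high, and in AFB1 it was 0.70, 1.06 and 1.67. TOP2A, the topoisomerase of dividing cells, measured 75.3, 79.05 and 88.8 RPM in COL, 53.9, 108 and 162 RPM in AFB1 and 28.4 RPM in the matched control. CDK1, the kinase that drives entry into mitosis, measured 26.6, 33.96 and 39.7 RPM in COL, 26.5, 41.8 and 71.8 RPM in AFB1 and 13.5 RPM in the matched control. Both were highest in the high AFB1 library, and all 6 treated libraries lay above the highest control (38.1 RPM for TOP2A and 16.7 RPM for CDK1). MKI67, the proliferation antigen Ki-67, measured 33.3, 43.9 and 43.5 RPM in COL, 18.98, 22.8 and 39.6 RPM in AFB1 and 11.2 RPM in the matched control, with slopes of 0.79 ± 0.12 and 0.54 ± 0.11, both past the threshold.

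Within the mitosis list 8 genes were higher in COL in the block fit (1.73% of all genes) and 0 lower: PLK1, CCNB1, CDC20, CENPA, BIRC5, DLGAP5, TPX2 and BUB1. Without the high libraries 12 were higher, without the mid ones 3, and without the low ones 7 with 1 lower. Several of these act late in mitosis or at the kinetochore. PLK1 measured 39.8, 39.5 and 59.5 RPM in COL, 13.3, 16.6 and 20.7 RPM in AFB1 and 7.45 RPM in the matched control (1.44 ± 0.12, edgeR adjusted p = 0.00424). CCNB1, cyclin B1, measured 36.9, 48.5 and 56.1 RPM in COL, 14.8, 20.4 and 25.2 RPM in AFB1 and 10.6 RPM in the matched control (1.23 ± 0.11, edgeR adjusted p = 0.00587). CDC20, the activator of the anaphase-promoting complex that the spindle checkpoint restrains, measured 20.2, 18.3 and 24.8 RPM in COL, 7.66, 8.12 and 11.5 RPM in AFB1 and 3.87 RPM in the matched control (1.21 ± 0.15). In each of the 3 the lowest COL library was above the highest AFB1 library, and AFB1 was itself above the 4 controls. The checkpoint gene MAD2L1 did not separate (-0.03 ± 0.18), nor did NUSAP1 (0.07 ± 0.13), which binds spindle microtubules. The slope difference was positive for 3 (PLK1, CCNB1 and CENPA) and negative for 0, against 3.16% of all genes in each direction. With the matched control alone it was positive for 6 (6.29% of all genes) and negative for 1 (6.69%).

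Late cell cycle promoters often hold the CHR element TTTGAA, through which the DREAM and MMB complexes act. On either strand (TTTGAA or TTCAAA) it was found in the 250 bases before a start site in 15 of 28 mitosis genes with a promoter sequence (53.6%; 28 of 34 matched), in 1 of 28 replication genes (3.57%; 28 of 33 matched) and in 12.8% of the 9535 tested genes with one. CCNB1, BIRC5, TPX2 and BUB1, also called higher in COL, had no match or no promoter sequence. Windows of 30 bases, RefSeq on GRCh38.p14, are shown for 4 genes called higher in COL (PLK1, CDC20, CENPA and DLGAP5) and for CDK1 and TOP2A. The matching bases are in capitals.
PLK1: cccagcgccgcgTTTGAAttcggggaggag
CDC20: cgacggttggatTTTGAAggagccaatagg
CENPA: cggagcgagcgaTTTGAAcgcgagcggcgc
DLGAP5: cctttcaatcaaTTCAAAtatcgcacggag
CDK1: gagtataataaaTTTGAActgtgccaatgc
TOP2A: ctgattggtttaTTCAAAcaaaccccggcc
They lie at PLK1 chr16:23678848-23678877 (plus strand), CDC20 chr1:43358904-43358933 (plus strand), CENPA chr2:26786026-26786055 (plus strand), DLGAP5 chr14:55191677-55191706 (minus strand), CDK1 chr10:60778158-60778187 (plus strand) and TOP2A chr17:40418030-40418059 (minus strand). A match was present both in genes that separated the chemicals and in genes that did not. Whether a match acts as a CHR element was not tested.

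The 8 genes with the largest shared rise were LOC100507127, ARL14, APOBEC3B, KIF14, FAM59B, CENPK, DIAPH3 and SFN. ARL14, a small GTPase of the ARF family, measured 20.1, 15.9 and 17.7 RPM in COL, 14.1, 15.3 and 22.8 RPM in AFB1 and 8.16 RPM in the matched control, with the other controls at 2.56 to 3.63 RPM. APOBEC3B, a cytidine deaminase that acts on DNA, measured 4.92, 3.67 and 5.31 RPM in COL, 2.11, 4.63 and 13.4 RPM in AFB1 and 1.43 RPM in the matched control, and SFN, the p53 target 14-3-3 sigma, 14.2, 13.01 and 20.4 RPM in COL, 9.55, 7.92 and 22.6 RPM in AFB1 and 5.08 RPM in the matched control. COL and AFB1 overlapped in all 3. KIF14, CENPK and DIAPH3 act in cytokinesis or at the kinetochore, and their log2 rises against the controls were 2.50 ± 0.37 (KIF14), 1.71 ± 0.35 (CENPK) and 2.44 ± 0.29 (DIAPH3) in COL and 1.88 ± 0.38, 1.77 ± 0.34 and 1.64 ± 0.30 in AFB1. DIAPH3, an actin-nucleating formin, was also higher in COL than in AFB1 in the block fit (0.87 ± 0.19, edgeR adjusted p = 0.0461).

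The 9 genes that fell in both were GNMT, SDS, HLF, RASA4, TMEM178A, POR, HAGH, TBC1D24 and SIDT2. POR, the reductase that passes electrons to all microsomal cytochrome P450 enzymes, measured 174, 136 and 119.7 RPM in COL, 163, 136 and 96.97 RPM in AFB1 and 189 RPM in the matched control, with the other controls at 250.2 to 288 RPM. HLF, a liver-enriched bZIP factor, measured 19.00, 14.99 and 12.1 RPM in COL, 19.1, 13.96 and 8.79 RPM in AFB1 and 22.7 RPM in the matched control. GNMT, a glycine methyltransferase abundant in liver, measured 1.76, 1.29 and 0.325 RPM in COL, 1.78, 0.604 and 0.468 RPM in AFB1 and 4.15 RPM in the matched control, where the 2 high libraries held 3 and 5 reads. SDS, serine dehydratase, was as low in them and was too low to be tested between the chemicals. No gene passed the threshold in opposite directions against the controls in edgeR, and 1 did in DESeq2. By slopes, 5 genes rose in COL and fell in AFB1 and 8 did the reverse.

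**Figure D3:**
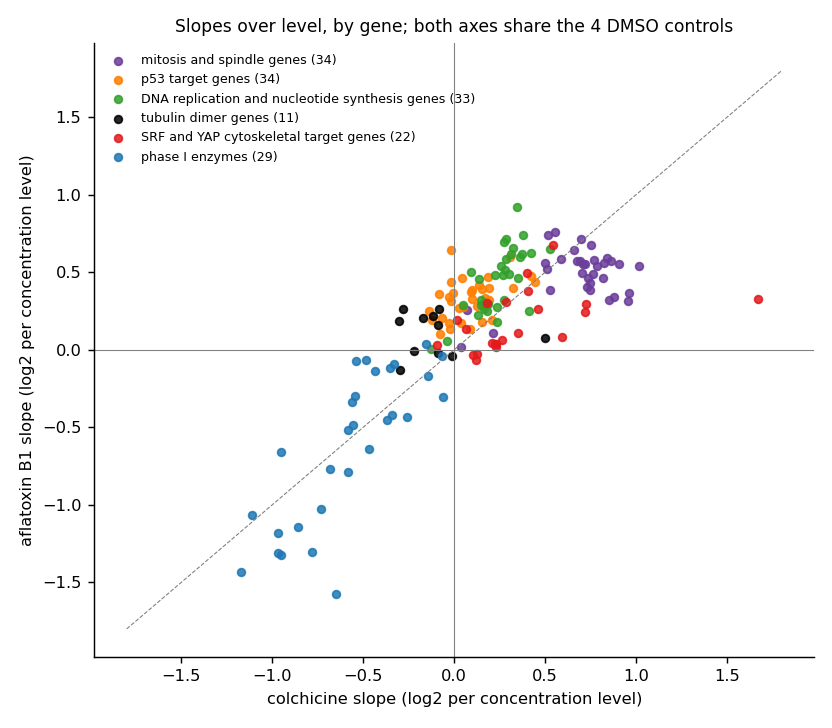
Slope over concentration level for AFB1 (y axis) against COL (x axis), both in log2 per level, for the genes of 6 lists, where the dashed line marks equal slopes and the shared DMSO controls enter both axes. Mitosis genes lie mostly on the COL side of the line, p53 target and replication genes on the AFB1 side, and phase I enzymes at negative slopes of both.

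Genes of hepatocyte functions fell by slope over level in both chemicals, and fewer were called against the means of the 4 DMSO controls. COL then lowered 6 of 29 phase I enzymes and 3 of 29 phase II enzymes and transporters (3.48% of all genes). It lowered 4 of 41 secreted protein genes and 2 of 20 transcription factors, and raised 1 of the 20. AFB1 lowered 0 in each list (0.115%). Without the high COL library the COL counts lower were 2, 0, 0 and 0. Without the low AFB1 library the AFB1 counts were 5, 0, 5 and 0. In these bulk libraries fewer cells of a type and less RNA per cell cannot be told apart. Of 29 phase I enzymes tested, 21 had a negative COL slope and 16 a negative AFB1 slope past the threshold (10.6% and 5.54% of all genes), and 0 had a positive one. In the block fit 6 were lower in COL, against 1.37% of all genes (2 without the mid libraries, and 8 with 3 higher without the low ones). With the matched control alone 25 (11%) of 30 had a negative COL slope and 22 (5.82%) a negative AFB1 slope. CYP2B6 measured 49.5, 28.5 and 8.89 RPM in COL, 49.3, 17.5 and 2.34 RPM in AFB1 and 59.9 RPM in the matched control. CYP2E1 measured 35.8, 25.7 and 8.24 RPM in COL, 42.1, 19.5 and 2.81 RPM in AFB1 and 76.3 RPM in the matched control. Both fell at each step in both chemicals. Each was lowest at high AFB1, but neither slope difference passed the threshold (edgeR adjusted p = 0.236 for CYP2B6 and 0.373 for CYP2E1).

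CYP3A4, the major drug-metabolizing P450 of liver and an activator of aflatoxin B1, had a lower slope in AFB1 past the threshold. It was the 1 of 29 phase I genes to do so (3.16% of all genes), against 2 of 30 with the matched control alone (6.29%). It measured 101, 87.7 and 49.6 RPM in COL, 99.3, 28.4 and 2.52 RPM in AFB1 and 113 RPM in the matched control, and the high AFB1 library held 2.23% of the matched control against 43.8% at high COL (slope difference 0.92 ± 0.19, edgeR adjusted p = 0.00956). The 7 others past the threshold had lower slopes in COL (3.16% of all genes), among them ALDH1A1, ALDH2, CES1, CES2, CYP27A1 and EPHX1. EPHX1, the microsomal epoxide hydrolase, measured 868, 835 and 548 RPM in COL, 1084, 1145 and 1080.4 RPM in AFB1 and 1248 RPM in the matched control, and fell in COL (slope difference -0.30 ± 0.05, edgeR adjusted p = 0.00452). ALDH1A1, a retinaldehyde dehydrogenase, measured 1151, 788 and 412 RPM in COL, 1421, 1243 and 1111 RPM in AFB1 and 1431 RPM in the matched control (slope difference -0.42 ± 0.08).

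Genes of secreted hepatocyte proteins fell by slope as well. Of 41, 25 had a negative slope past the threshold in COL (10.6% of all genes) and 25 in AFB1 (5.54%), and 0 a positive one. With the matched control alone 39 fell in COL (11% of all genes) and 32 in AFB1 (5.82%). In the block fit 1 was higher in COL, APOA4 (1.73% of all genes), and 2 were lower, the acute-phase genes SAA1 and SAA2 (1.37%). These counts are too few to set the list apart from all genes. The count higher was 5 without the low libraries and 0 without the mid ones. TTR, the thyroxine carrier transthyretin, measured 2992, 2904 and 1645 RPM in COL, 3491, 2765 and 1139.8 RPM in AFB1 and 4802 RPM in the matched control, with all treated libraries below the 4 controls. Of 20 hepatocyte transcription factors and nuclear receptors, 12 fell by slope in COL (10.6% of all genes) and 6 in AFB1 (5.54%), and 1 rose in COL (10.4%). In the block fit 1 was lower in COL, CEBPB (1.37%). Among those that fell in both was HNF4A (72.7, 47.7 and 31.1 RPM in COL, 78.6, 66.5 and 40.4 RPM in AFB1 and 90.8 RPM in the matched control), the master regulator of hepatocyte identity. Its slopes were -0.54 ± 0.06 and -0.38 ± 0.06, both past the threshold. ALB had slopes of -0.21 ± 0.10 and -0.11 ± 0.10 that were not past it. Of the 8 hepatocyte markers 6 fell by slope in COL (10.6% of all genes) and 5 in AFB1 (5.54%). Their summed RPM ranged from 17184 to 31474 in COL, 22216 to 38749.6 in AFB1 and 26913 to 41709 in the controls.

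**Figure D4:**
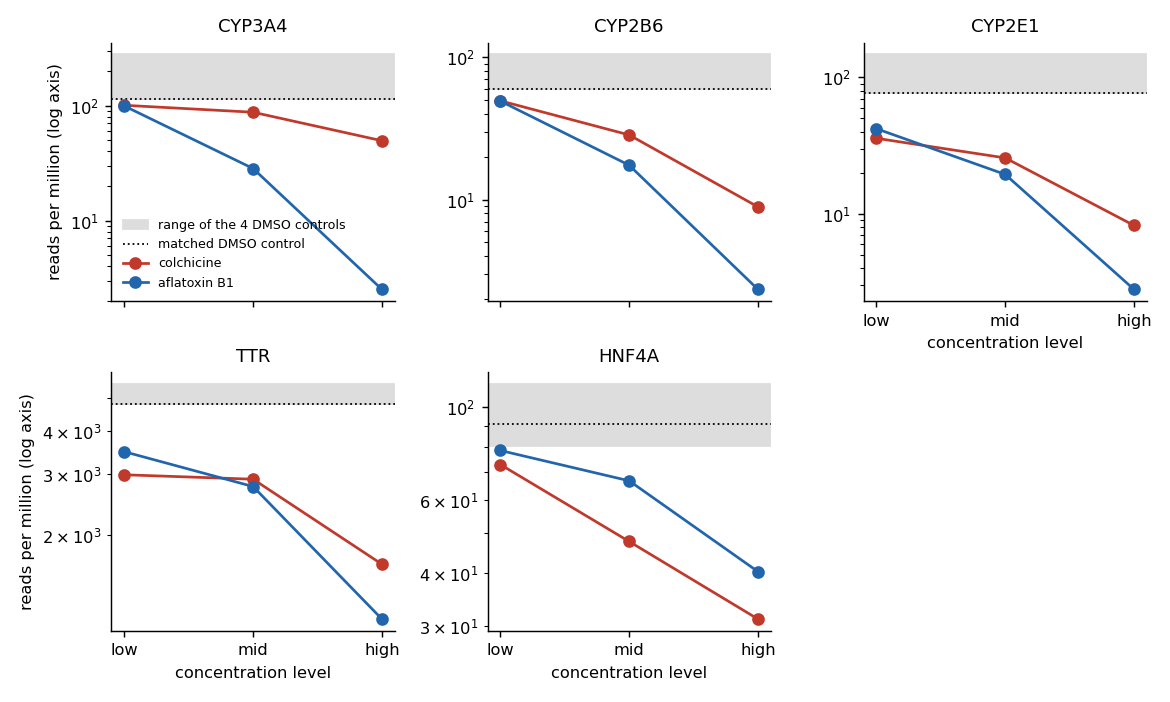
RPM (log y axis, scale differing between panels) at each concentration level (x axis) of COL (red) and AFB1 (blue) for 3 cytochrome P450 genes, TTR and HNF4A, with the range of the 4 DMSO controls shaded and the matched control dotted. The high library is the lowest of its chemical in all 5 panels, and CYP3A4 shows the widest gap, 49.6 RPM at high COL and 2.52 RPM at high AFB1.

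Of 15 NRF2 target genes, 5 were lower in COL in the block fit and 0 higher (among them NQO1, GCLC, AKR1B10 and AKR1C1), and 1 was without the mid libraries. Of all genes 1.73% were called higher in COL in that fit and 1.37% lower, and by slope 10.6% fell in COL and 5.54% in AFB1. A count of 1 in a list, as in some lists below, is too few to set it apart from all genes. AKR1B10, an aldo-keto reductase, measured 420.1, 293 and 151 RPM in COL, 709, 703 and 659 RPM in AFB1 and 627 RPM in the matched control (-1.38 ± 0.20, edgeR adjusted p = 0.0134), while HMOX1, heme oxygenase 1, differed by -0.01 ± 0.14. Of 27 phase II enzymes and transporters, 3 were lower in COL in the block fit (GSTA1, GSTT2 and UGT2B7), 1 without the high libraries and 0 without the mid ones. GSTA1, a glutathione transferase, measured 1520.1, 1197 and 533 RPM in COL, 2236, 1815 and 1365 RPM in AFB1 and 2303 RPM in the matched control (-0.84 ± 0.14). By slope 16 of 29 fell in COL and 8 in AFB1. Of 21 sterol synthesis genes 1 was lower in COL, FDFT1 (0 without the mid or the high libraries), and 13 fell by slope in COL and 10 in AFB1. Of 19 unfolded protein and stress genes 1 was higher, PPP1R15A, whereas 4 were higher and 2 lower without the low libraries and 0 were called without the mid ones. Of 17 NF-kappaB and chemokine genes, IL6 was higher in COL, with 2.20, 3.87 and 6.51 RPM in COL, 0.888, 0.806 and 2.06 RPM in AFB1 and 0.644 RPM in the matched control, and CXCL1 lower (-0.61 ± 0.12). Without the mid libraries 0 of the 17 were called, without the high ones 2 were higher and 0 lower, and without the low ones 1 was higher and 2 lower.

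Among the cell type markers 1 was called in the block fit, SPP1, osteopontin, which was lower in COL and measured 44.7, 40.6 and 22.3 RPM in COL, 76.7, 63.2 and 46.9 RPM in AFB1 and 72.3 RPM in the matched control (-0.83 ± 0.12, edgeR adjusted p = 0.0134). By the slope difference 1 hepatocyte marker was higher in COL, CYP3A4 as above, 1 was lower, and 1 biliary marker was higher (3.16% of all genes in each direction). KRT19 did not differ past the threshold in the block fit (-0.15 ± 0.13). The summed RPM of the biliary markers was 1031 to 1217 in COL, 1018 to 1387 in AFB1 and 473 to 1353 in the controls. The 6 stromal and 2 macrophage markers tested gave 0 calls in the block fit, and 1 stromal marker was lower in COL without the low libraries. LUM, the most abundant stromal marker, measured 101, 122 and 84.9 RPM in COL, 91.1, 92.2 and 113 RPM in AFB1 and 73.6 RPM in the matched control. The part of these cell types in the results above was not tested.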

How the data were processed

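RNA of differentiated HepaRG cultures was measured with an amplicon panel (AmpliSeq) whose reads were aligned to hg19 targets and counted per target by the authors with the Ion Torrent software, and reads of several chips were pooled per library. The deposited counts are whole numbers per target, and the deposited RPM values are the authors' counts divided by the library total, which recomputed RPM matched within 0.000538. The 10 spike-in targets, all at 0, were left out. Counts were tested with edgeR 4.0.16 (R 4.3.3, TMM normalization, filterByExpr, quasi-likelihood F-test, Benjamini-Hochberg, threshold 0.05). The direct comparison used 6 libraries (4 residual degrees of freedom, 2 with concentration level as a block). Contrasts with vehicle and slopes over level used 10 libraries. Each chemical's own slope, the slopes with the matched control alone and the block without 1 level were added after the data were seen. The planned rule took, in each direction, the 12 genes with the largest difference past the threshold, with a mean of at least 5 RPM and without overlap, and for genes moved alike the 8 whose smaller change of the 2 contrasts was largest. Since 2 genes passed the planned test, the rule was applied to the block fit, which was chosen after the data were seen, and members of 21 gene lists (449 genes on the panel) were named too. Some genes that these rules name are not reported here. The comparison, gene lists and rules were chosen with earlier results of these data known. Other settings tried were DESeq2 1.42.0, limma 3.58.1 on log2 RPM with pseudocounts of 1 and 0.1, RLE normalization, other filters on low counts and leaving out each library. On counts simulated for the direct comparison over 12805 genes, 71 of 100 genes changed 2-fold and 94 of 100 changed 4-fold were recovered, and 16 unchanged genes were called. For the block fit these were 83, 97 and 13, and for the COL slope, with the fold set at the high level, 59, 93 and 7. The direct and block simulations gave all libraries of a chemical 1 mean, without a step in concentration. They do not give the recovery in the real libraries. Sequences came from GENCODE v29 (GRCh38) and RefSeq (GRCh38.p14), since hg19 annotation was not used here.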

Additional observations from a re-analysis of the deposited data

Results flagged for a closer look

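GNMT, glycine N-methyltransferase, stood apart in 1 of the 4 DMSO controls. It measured 10.7 RPM in the 2-nitrofluorene control against 4.15 RPM in the matched control, 4.04 RPM in the cisplatin control and 4.54 RPM in the etoposide control, and the gap to the nearest control was 0.925 of the whole range, past Dixon's critical value for 4 values. It was the only 1 of 64 sets of 4 control values past that value, and chance alone puts about 5% of sets past it.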

How the results depend on the processing

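The count of 2 genes between COL and AFB1 was also 2 under RLE normalization, a minimum of 10 counts and limma with pseudocounts of 1 and 0.1. It was 342 (203 higher, 139 lower) in DESeq2, 145 with no filter on low counts, 35 with the DMSO controls in the fit, 826 for the slope over level and 1739 for that slope with the matched control alone. With concentration level as a block, which pairs libraries by the rank of their concentration, it was 396 (514 in DESeq2), and 906, 68 and 251 without the low, mid and high libraries. No replicate block was fitted, because the replicate numbers follow accession order, and the level block takes its place. COL against the DMSO controls gave 1180 genes, but 1 with the matched control alone, 2743 by slope and 2752 by slope with the matched control alone. AFB1 against the controls gave 155 genes, 599 in DESeq2, 433 with no filter, 0 with the matched control alone, 1542 by slope and 1411 by slope with the matched control alone. Genes moved alike numbered 92, 280 in DESeq2, 212 with no filter, 0 with the matched control alone, 902 by slope and 854 by slope with the matched control alone. Genes moved in opposite directions numbered 0, 1 in DESeq2, 1 with no filter and 13 by either slope. Without 1 library the counts ranged from 0 to 104 for COL against AFB1 (104 without low COL, 0 without mid COL or mid AFB1), 263 to 1665 for COL against the controls (263 without high COL, 1665 without low COL), 0 to 472 for AFB1 against the controls (472 without the matched control), 0 to 278 for genes moved alike (278 without the matched control) and 0 to 1 for genes moved opposite (1 without low COL). The causes of these changes were not tested. Of the named genes under these settings none changed sign: for COL against AFB1, 1003 values stayed on the same side of the threshold, 600 passed it newly and 10 no longer passed it. The named genes were picked by calls on these same libraries, in part with non-overlap required, so an unchanged sign was nearly fixed in advance. For COL against the controls 182 stayed and 52 no longer passed it, and for AFB1 against the controls 118 stayed and 116 no longer passed it. Depth limits genes of few reads, among them TREM2, SDS and CNN1.

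The chief limit is that each concentration is 1 library of pooled RNA. The libraries of a chemical differ in concentration as well as in culture, the concentrations of COL and AFB1 are not matched in potency, and the block has 2 residual degrees of freedom.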
